A study of Zanthoxylum armatum with 15 samples.

Results

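KASII, FabG and KCS1 are 3 of the 111318 unigenes assembled from 5 organs of Zanthoxylum armatum, a Rutaceae shrub grown for its numbing fruits. They were chosen by their identifiers: Cluster-12235.36948 (KASII, best match AT1G74960 of Arabidopsis), Cluster-12235.39459 (FabG, AT1G24360) and Cluster-12235.48777 (KCS1, AT1G01120). The study had listed all 3 among the fatty acid unigenes higher in fruits than in each other organ of these same libraries. Their levels in fruits are therefore described without a test, and tests of the 3 were kept to the 4 other organs. RNA-seq libraries were made from fruits, mature leaves, leaf buds, roots and stems, with 3 replicates of each and material of 3 untreated plants of 1 cultivar mixed per replicate. A difference between whole organs cannot tell fewer cells of a type from less RNA per cell.

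In plants, fatty acids are built in the plastid on acyl carrier protein (ACP), by cycles of condensation, reduction, dehydration and a further reduction. FabG is the 3-oxoacyl-ACP reductase of each cycle, and KASII is the condensing enzyme that extends palmitoyl-ACP to stearoyl-ACP, the precursor of oleic acid and other 18-carbon acids. KCS enzymes act later and elsewhere: they are the condensing enzymes of the endoplasmic reticulum that extend acyl-CoA to the very long chains of cuticular wax, suberin and sphingolipids, and KCS1 is a member of this family known in Arabidopsis for its part in wax synthesis.

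The study's supplementary tables list quantitative PCR primers under the identifiers of KASII and FabG, written here 5′ to 3′. The names themselves come from its annotation, and the match of the primers to the transcripts was not tested. KCS1 has no such primers in the tables used here.
KASII forward: gctggtgtaatcctctgcgtaga
KASII reverse: gaacccacccagtccttattgc
FabG forward: agattgaggcatctggtggtca
FabG reverse: tcaatatgtcaacagttccccatg

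Depth was similar throughout, with totals of 18802274 to 24081708 estimated counts. Each library has an estimated count and an FPKM value for every unigene (FPKM is the number of fragments per length of the unigene and per total fragments of that library). FPKM compares unigenes per length, but it is not corrected for a few very abundant transcripts taking up a library, and normalization factors of the TMM method, which makes that correction, lay between 0.813 and 0.826 in mature leaves, 0.867 and 0.901 in fruits, 1.11 and 1.18 in leaf buds, 1.04 and 1.15 in roots, and 1.07 and 1.08 in stems. Between-organ differences were therefore read on both scales. As a check of the organ labels, 20 unigenes of the light-harvesting antenna proteins of photosynthesis summed to between 17.5 and 27.4 FPKM in root libraries, against at least 6503 FPKM in every library of the 4 green organs, with mature leaves highest at 27128 to 27688 FPKM.

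All 3 unigenes were well covered. KASII had the highest level, with a mean of 53.8 FPKM over the 15 libraries, which is above 97.3% of the unigenes that had a count, and its estimated count was at least 1323 in every library. FabG averaged 16.4 FPKM, at the percentile of 89.6, with counts of at least 80.1. KCS1 averaged 9.88 FPKM, at the percentile of 83.5, with counts of at least 243. The counts of KCS1 were whole numbers in all 15 libraries, while those of KASII were not whole in 8 and those of FabG in 15 libraries. What the fractions stand for was not tested.

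KASII was most abundant in fruits, at about 100 FPKM, and varied little among the other organs. It had 96.41, 107.6 and 97.46 FPKM in the 3 fruit libraries, 34.43, 34.18 and 32.09 FPKM in mature leaves, 46.93, 47.37 and 45.23 FPKM in leaf buds, 37.4, 38.64 and 39.88 FPKM in roots, and 49.63, 49.27 and 50.94 FPKM in stems. Every fruit library stood above every other library, the kind of difference for which KASII had been listed. On the FPKM scale the ranges of the 5 organs did not overlap. In normalised CPM (counts scaled by the library total and the TMM factor), mature leaves (76.1 to 80.6) and leaf buds (74.4 to 81.4) overlapped. How many of all unigenes have such separate FPKM ranges was not tested. The fruit mean of 100.5 ± 6.18 FPKM was 2.01 times that of stems, the next organ, and 2.99 times that of mature leaves, the lowest (SD, n = 3 each).

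FabG had the widest range of the 3 relative to its mean, and was scarcest in roots. Its fruit libraries had 37.69, 42.25 and 34.25 FPKM, and its leaf bud libraries, the next highest, 16.21, 15.9 and 17.4 FPKM. It had 11.45, 9.67 and 8.18 FPKM in mature leaves and 10.47, 11.79 and 13.52 FPKM in stems, which overlapped. The root libraries had 4.97, 6.41 and 6.3 FPKM, all below every library of the other organs. The share of all unigenes with root libraries so apart was not tested. The fruit mean of 38.1 ± 4.01 FPKM was 2.31 times the leaf bud mean and 6.46 times the root mean (SD, n = 3 each).

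KCS1 had the smallest ratio of highest to lowest organ mean. It had 17.06, 15.64 and 19.55 FPKM in fruits, with a mean of 17.4 ± 1.98 FPKM (SD, n = 3). In the other 12 libraries it lay between 6.15 and 9.54 FPKM, with 8.22, 8.84 and 7.74 FPKM in mature leaves, 8.86, 6.45 and 7.87 FPKM in leaf buds, 9.54, 9.25 and 7.03 FPKM in roots, and 8.43, 7.63 and 6.15 FPKM in stems. These 4 organs overlapped with each other, and none of them overlapped with fruits, the kind of difference for which KCS1 had been listed. The fruit mean was 2.02 times that of roots and 2.35 times that of stems.

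**Figure D1:**
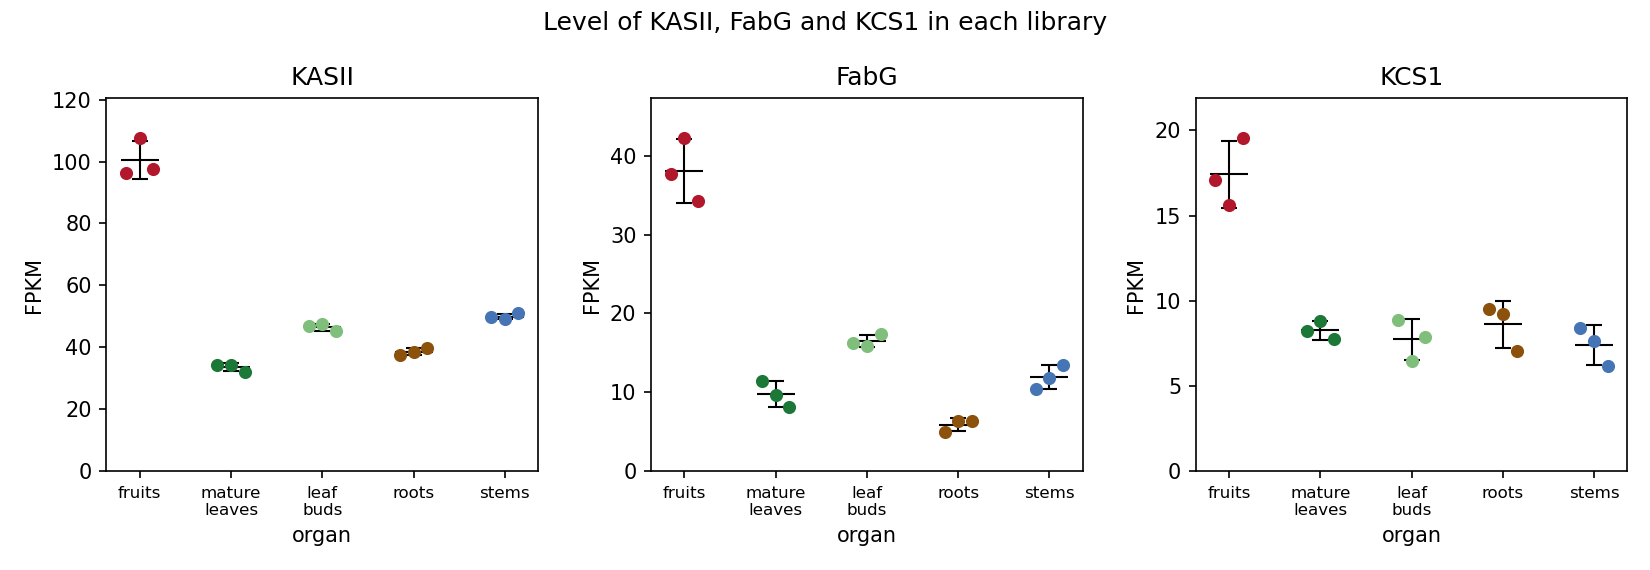
FPKM of KASII, FabG and KCS1 (vertical axes, each from 0) in the 3 libraries of each organ (points), with the mean and SD (black). Fruits are above every other library in the 3 panels, roots are lowest for FabG (4.97 to 6.41 FPKM), and the 4 other organs overlap for KCS1.

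On the TMM scale the log2 fold changes of fruits were, for KASII, 1.46 over mature leaves, 1.47 over leaf buds, 1.69 over roots and 1.29 over stems, each with a standard error of about 0.09. Those of FabG were 1.85 over mature leaves, 1.57 over leaf buds, 3.0 over roots and 1.98 over stems, with standard errors between 0.14 and 0.16. KCS1 gave 0.95 over mature leaves, 1.54 over leaf buds, 1.33 over roots and 1.52 over stems, each with a standard error of 0.14. These contrasts chose the unigenes and nothing is read from them. At the study's threshold of 1 on the log2 scale, the weakest value of KCS1 lay just outside, while 2 further fatty acid unigenes of the study lay just inside, Cluster-12235.47316 (KASII) at 1.05 over stems and Cluster-12235.48243 (FabG) at 1.06 over leaf buds. By library totals alone, without TMM, the log2 fold changes of fruits over leaf buds, roots and stems were 1.11, 1.37 and 1.02 for KASII, 1.20, 2.67 and 1.70 for FabG, and 1.16, 1.0 and 1.24 for KCS1, and KCS1 over mature leaves was 1.07. Over all unigenes tested, 1395 of 57488 (2.43%) met an adjusted p under 0.05 and a log2 fold change over 1 in all 4 fruit comparisons, the kind of criterion by which the 3 unigenes had been listed.

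Among the 4 organs other than fruits, all 3 unigenes differed in a joint edgeR quasi-likelihood test, with adjusted p-values of 0.00485 for KASII, 7.05e-07 for FabG and 0.00217 for KCS1. Such a difference was common, since 77.8% of the unigenes tested passed. A larger F value was found for 65.2% of the unigenes tested in the case of KASII, 61.6% for KCS1 and 34.2% for FabG, so FabG stood above the middle of that order and KASII and KCS1 below it. The joint call for FabG held in all 24 alternatives, that of KASII was lost without 1 of the stem libraries (adjusted p of 0.0539 without replicate 1 and 0.07 without replicate 3), and that of KCS1 was lost by library totals and with limma on FPKM (adjusted p of 0.448 by library totals), not with DESeq2's size factors (0.00428).

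FabG was lower in roots than in each of the 3 other organs, and these were the only differences over the threshold of 1 among the 18 tested for the 3 unigenes. Over all unigenes, 39.9% passed both thresholds for mature leaves over roots, 41.4% for leaf buds over roots and 35.3% for roots over stems. In normalised CPM (counts scaled by the library total and the TMM factor), FabG averaged 9.08 ± 1.44 in mature leaves, 11.04 ± 0.37 in leaf buds, 4.12 ± 0.68 in roots and 8.31 ± 1.10 in stems (SD, n = 3 each). The log2 fold change was 1.14 for mature leaves over roots (SE 0.16, adjusted p = 4.09e-06, edgeR), 1.43 for leaf buds over roots (SE 0.16, adjusted p = 1.16e-07, edgeR) and −1.02 for roots over stems (SE 0.16, adjusted p = 1.63e-05, edgeR). All 3 stayed under the adjusted p of 0.05 in all 24 alternatives each, although by library totals mature leaves over roots fell to 0.70 and roots over stems to −0.97. Leaf buds were also above stems, by 0.41 on the log2 scale (adjusted p = 0.0336, edgeR), which was lost in 8 of 24 alternatives, among them those without any 1 of the leaf bud libraries or without replicate 1 or 2 of stems (adjusted p up to 0.189). Mature leaves and stems, neighbours in the order of levels, did not pass (0.13, 95% interval −0.19 to 0.44, and −0.27 by library totals). Nor did mature leaves and leaf buds on the TMM scale (−0.28, interval −0.59 to 0.03), whereas by library totals FabG was lower in mature leaves (−0.77, adjusted p = 0.000144).

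KASII was lower in roots than in stems on each scale tried. It averaged 67.7 ± 5.87 normalised CPM in roots and 88.8 ± 1.83 in stems (SD, n = 3 each), with a log2 fold change of −0.39 (SE 0.09, adjusted p = 0.000843, edgeR) that passed in all 24 alternatives. Mature leaves averaged 79.0 ± 2.50 and leaf buds 78.4 ± 3.60 normalised CPM (SD, n = 3 each), and their difference was 0.01 on the log2 scale (95% interval −0.18 to 0.20). Both were above roots by 0.22 and 0.21 (adjusted p of 0.0377 and 0.0443, edgeR), but these calls held in only 8 and 10 of 24 alternatives, and mature leaves were lower than roots in 3 others, all without a correction for composition. The first was lost on leaving out replicate 1 or 2 of mature leaves, any leaf bud library, replicate 1 or 2 of roots, or replicate 1 or 3 of stems, and the second on leaving out replicate 3 of mature leaves, any leaf bud library, replicate 1 or 2 of roots, or any stem library (adjusted p up to 0.195 and 0.474). The differences of mature leaves and of leaf buds from stems, −0.17 and −0.18, did not pass (adjusted p of 0.126 and 0.128).

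KCS1 was highest in mature leaves only on scales that correct for library composition (TMM and DESeq2's size factors). It averaged 18.5 ± 1.20 normalised CPM there, 12.4 ± 1.87 in leaf buds, 14.2 ± 1.56 in roots and 12.49 ± 1.90 in stems (SD, n = 3 each). Mature leaves were higher by 0.58 over leaf buds (SE 0.14, adjusted p = 0.00142, edgeR), 0.57 over stems (SE 0.14, adjusted p = 0.00189, edgeR) and 0.38 over roots (SE 0.14, adjusted p = 0.0255, edgeR) on the log2 scale. By library totals the same values were 0.09, 0.17 and −0.07, and none passed. The call over roots was also lost on leaving out replicate 2 of mature leaves, any leaf bud library, replicate 3 of roots, or replicate 1 or 3 of stems (adjusted p up to 0.0838). Leaf buds, roots and stems did not pass against each other, with 95% intervals of −0.49 to 0.09 for leaf buds over roots, −0.31 to 0.28 for leaf buds over stems and −0.10 to 0.48 for roots over stems.

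Mature leaf libraries carried the smallest TMM factors, and their comparisons moved most with the scale. Leaving TMM out shifted the log2 fold changes of single unigenes by a median of −0.49 for mature leaves over leaf buds, −0.44 over roots and −0.39 over stems, and moved the share of called unigenes that were higher in mature leaves to 28.7%, 33.4% and 34.1%, against 52.1%, 51.8% and 53.9% with TMM. By library totals the values of KASII in mature leaves were −0.48 over leaf buds (adjusted p = 3.66e-05, edgeR), −0.21 over roots and −0.56 over stems.

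**Figure D2:**
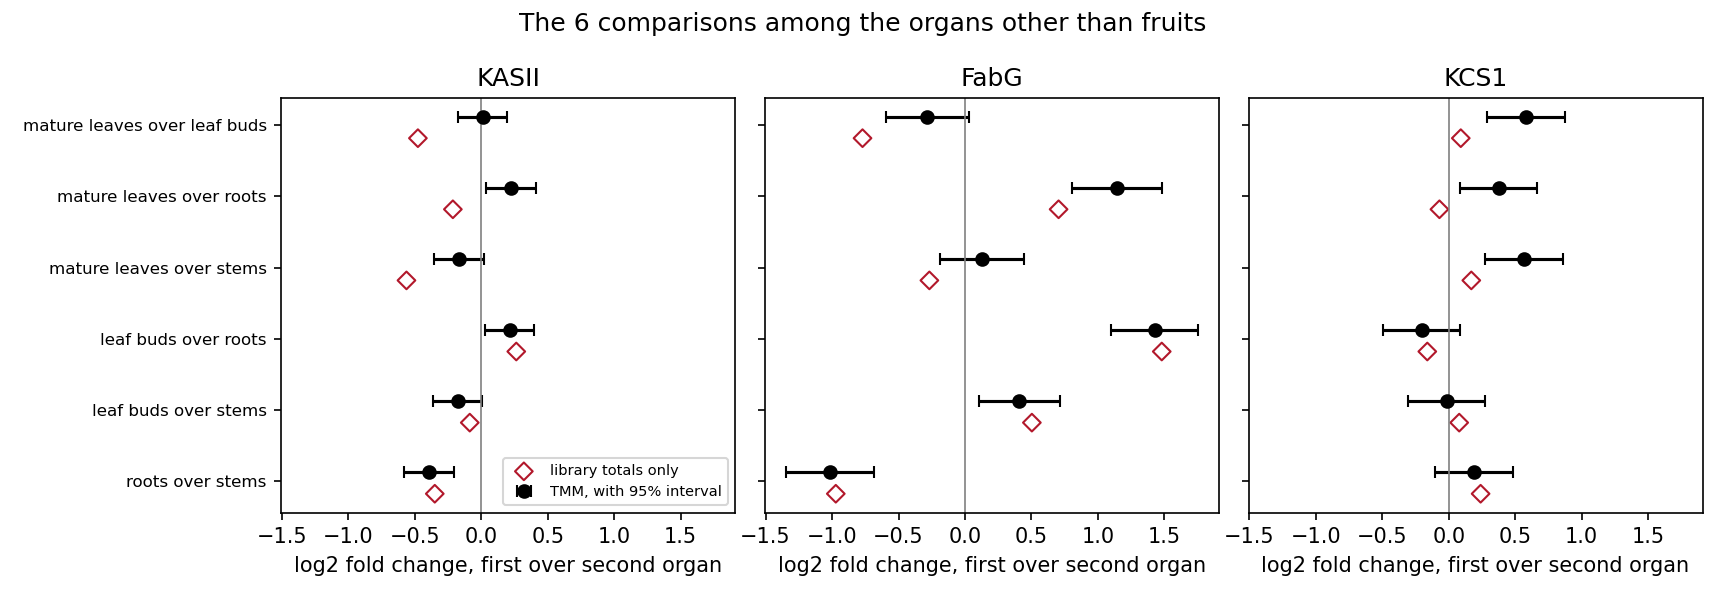
Log2 fold change of the first over the second organ (horizontal axes) in the 6 comparisons among the organs other than fruits, for KASII, FabG and KCS1. Black points with bars are the TMM values with 95% intervals and open red diamonds the values by library totals. FabG is apart from 0 in each comparison with roots on both scales, and the comparisons with mature leaves shift to the left without TMM.

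Counted by comparison, the calls of the 3 unigenes stand beside those of all unigenes as follows. The test was passed by 1 of 3 for mature leaves over leaf buds (background 51.4% of 57488 unigenes), 3 of 3 for mature leaves over roots (58.1%), 1 of 3 for mature leaves over stems (50.7%), 2 of 3 for leaf buds over roots (60.2%), 1 of 3 for leaf buds over stems (36.2%) and 2 of 3 for roots over stems (55.5%).

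A ratio of 2 unigenes within a library does not depend on scaling between libraries, and such ratios showed that FabG, KASII and KCS1 did not keep fixed proportions. The FPKM ratio of FabG over KASII was 0.378 ± 0.023 in fruits, 0.290 ± 0.039 in mature leaves, 0.355 ± 0.026 in leaf buds, 0.152 ± 0.017 in roots and 0.239 ± 0.027 in stems (SD, n = 3 each). It was between 0.133 and 0.166 in the root libraries and at least 0.211 in every other library. Over the 12 libraries other than fruits the ratio differed between organs (exact permutation test over all 15400 divisions, 2-sided by construction, p = 0.00026, adjusted over the 6 ratios and shares 0.000779).

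The FPKM ratio of KCS1 over KASII, a ratio of 2 transcripts and not of their pathways, was 0.174 ± 0.028 in fruits, 0.246 ± 0.011 in mature leaves, 0.166 ± 0.027 in leaf buds, 0.224 ± 0.042 in roots and 0.148 ± 0.025 in stems (SD, n = 3 each). Mature leaves were the highest of the 4 other organs, at 0.239 to 0.259, and overlapped with roots at 0.176 to 0.255. The difference between organs passed (exact permutation p = 0.0178, adjusted 0.0214), but not without replicate 2 of mature leaves (adjusted 0.0527). FabG over KCS1 was 2.22 ± 0.47 in fruits, 1.18 ± 0.18 in mature leaves, 2.17 ± 0.32 in leaf buds, 0.703 ± 0.188 in roots and 1.66 ± 0.49 in stems (SD, n = 3 each). Roots were the only organ in which KCS1 exceeded FabG in all 3 libraries, and the organs differed (exact permutation p = 0.00117, adjusted 0.00234).

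Each unigene was then set beside the other unigenes that the study named for the same enzyme. All of these 9 had been chosen by the study as higher in fruits on the same libraries, so their levels in fruits are no independent evidence. KASII had 1 such partner, Cluster-12235.47316, at 63.5 ± 10.3 FPKM in fruits, 20.6 ± 0.96 in mature leaves, 32.2 ± 3.34 in leaf buds, 25.6 ± 1.40 in roots and 38.0 ± 5.31 in stems (SD, n = 3 each). Its order of organs by mean FPKM was that of KASII, and it too was lower in roots than in stems (log2 fold change −0.55, adjusted p = 0.000862, edgeR). KASII made up 61.4 ± 3.02% of the summed FPKM of both in fruits, 61.9 ± 2.0% in mature leaves, 59.2 ± 1.99% in leaf buds, 60.1 ± 2.06% in roots and 57.0 ± 2.96% in stems (SD, n = 3 each). A difference in this share between organs was not detectable (exact permutation p = 0.129, adjusted 0.129). Both have the best match AT1G74960, with median lengths implied by count and FPKM of 1923 bases for KASII and 582 for Cluster-12235.47316. Whether they are parts of 1 gene was not tested.

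FabG had 3 partners, of which Cluster-12235.48243 was more abundant than FabG itself in every organ, at 57.2 ± 3.0 FPKM in fruits, 22.4 ± 0.47 in mature leaves, 35.3 ± 0.83 in leaf buds, 21.1 ± 1.91 in roots and 25.6 ± 0.52 in stems (SD, n = 3 each). Cluster-12235.48244 lay between 2.16 and 19.04 FPKM and Cluster-26137.0 at no more than 2.11 FPKM, with 56 counts summed over the fruit libraries and none in roots, which allows 3 counts. Cluster-12235.48243 was also lower in roots, with log2 fold changes of 0.69 for leaf buds over roots (adjusted p = 3.99e-06, edgeR) and −0.31 for roots over stems (adjusted p = 0.0121, edgeR) that passed on both scales. Its value for mature leaves over roots was 0.52 with TMM (adjusted p = 0.000139, edgeR) but 0.08 by library totals (adjusted p = 0.43). FabG held 33.3 ± 1.28% of the summed FPKM of the 4 unigenes in fruits, 26.9 ± 2.90% in mature leaves, 28.6 ± 0.47% in leaf buds, 19.6 ± 2.12% in roots and 29.1 ± 3.16% in stems (SD, n = 3 each). The root libraries, at 17.9% to 22%, were below all others, and the share differed between the organs other than fruits (exact permutation p = 0.0107, adjusted 0.0161). Counts of FabG and of Cluster-12235.48243 were not whole in all 15 libraries, and the part of this in the share was not tested. All 4 unigenes have the best match AT1G24360. Their implied lengths were 763 bases for FabG, 2463 for Cluster-12235.48243, 719 for Cluster-12235.48244 and 636 for Cluster-26137.0. Whether they are parts of 1 gene was not tested.

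KCS1 held a smaller share of the 6 KCS unigenes of the fruit list in fruits than in the other organs. All 6 had been chosen by the study as higher in fruits of these libraries, so that share is no independent evidence. The 6 KCS unigenes of the fruit list summed to a mean of 446 FPKM in fruits, 124 in mature leaves, 80.1 in leaf buds, 53.6 in roots and 51.2 in stems. With the 2 unigenes named KCS10 counted apart, KCS1 was in place 5 of 6 by mean FPKM in fruits and mature leaves. It was in place 4 in leaf buds, 2 in roots and 3 in stems. It held 3.90 ± 0.07% of the sum in fruits, 6.69 ± 0.32% in mature leaves, 9.74 ± 1.63% in leaf buds, 15.99 ± 1.25% in roots and 14.4 ± 0.91% in stems (SD, n = 3 each), and the 4 other organs differed (exact permutation p = 0.000195, adjusted 0.000779). With 3 further KCS unigenes that the study listed as specific to leaf buds, the share in leaf buds was 3.96 ± 0.83%, that in stems was 13.03 ± 1.28%, and those in fruits, mature leaves and roots were 3.90%, 6.66% and 15.95%.

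The KCS6, KCS10 and KCS2 unigenes varied far more among the organs than KCS1. For KCS12 the highest mean FPKM of the 4 organs other than fruits was 2.60 times the lowest, against 1.16 for KCS1. KCS6 (Cluster-12235.44549), the main enzyme of wax synthesis in Arabidopsis stems, had 179 ± 26.4 FPKM in fruits, 55.5 ± 1.55 in mature leaves, 7.15 ± 1.56 in leaf buds, 1.77 ± 0.17 in roots and 17.1 ± 1.28 in stems (SD, n = 3 each). KCS10, known in Arabidopsis as FIDDLEHEAD and needed to keep the surfaces of young organs apart, was represented by Cluster-12235.42722, with 93.7 ± 9.28 FPKM in fruits, 34.2 ± 0.93 in mature leaves, 27.2 ± 4.69 in leaf buds, 1.74 ± 0.07 in roots and 14.2 ± 0.78 in stems (SD, n = 3 each). A second KCS10 unigene, Cluster-12235.48286, had 71.2 ± 10.7 FPKM in fruits and at most 0.65 FPKM in a root library. Both have the best match AT2G26250, with implied lengths of 1639 bases for Cluster-12235.42722 and 452 for Cluster-12235.48286. Whether they are parts of 1 gene was not tested.

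KCS2 (Cluster-12235.42985), which acts in suberin synthesis in Arabidopsis roots, had 77.7 ± 14.2 FPKM in fruits, 11.04 ± 0.14 in mature leaves, 11.7 ± 3.10 in leaf buds, 39.6 ± 3.47 in roots and 4.07 ± 0.55 in stems (SD, n = 3 each). Its log2 fold change of roots over stems was 3.26 (adjusted p = 1.47e-12, edgeR), whereas those of KCS6 and of Cluster-12235.42722 were −3.29 (adjusted p = 7.26e-13, edgeR) and −3.06 (adjusted p = 9.87e-13, edgeR), and that of KCS1 was 0.19 (adjusted p = 0.265, edgeR). KCS12 (Cluster-12235.15783) lay between 1.04 and 8.06 FPKM. In the joint test among the 4 organs, a larger F value was found for 1.83% of unigenes in the case of KCS6, 3.33% for Cluster-12235.42722, 9.67% for KCS2, 14.8% for Cluster-12235.48286 and 42% for KCS12, against 61.6% for KCS1.

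The study had listed the 3 further KCS unigenes as specific to leaf buds on these same libraries, so their near confinement to that organ is no independent evidence. Cluster-12235.57397 had 114 ± 24.6 FPKM in leaf buds and at most 7.31 FPKM in any other library, Cluster-12235.10961 had 2.59 to 4.75 FPKM in leaf buds and at most 0.08 FPKM elsewhere, and Cluster-6491.0 had counts only in leaf buds, 30 in all, and was too scarce to be tested. The leaf bud mean of Cluster-12235.57397 exceeded the summed mean of the 6 KCS unigenes of the fruit list, 80.1 FPKM.

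**Figure D3:**
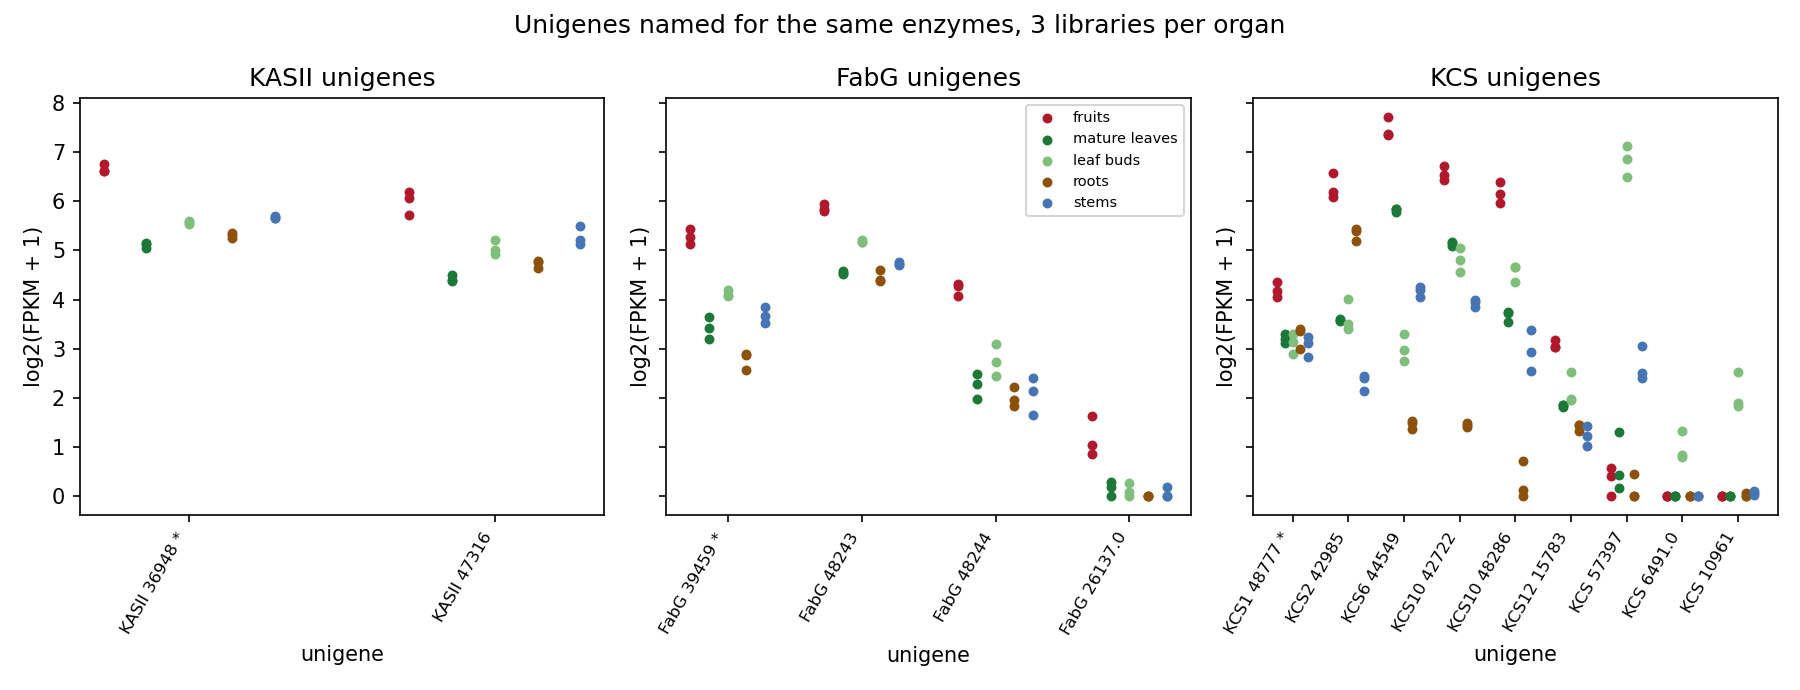
Levels as log2(FPKM + 1) of the unigenes named KASII, FabG and KCS, with 3 libraries per organ (points, fruits at the left of each unigene and stems at the right). An asterisk marks KASII, FabG and KCS1 themselves. KCS1 spans a narrow range beside KCS6 and KCS10, which are low in roots. The 3 unigenes at the right, listed by the study for leaf buds, are high there.

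Of these 9 partner unigenes, the number that passed the test higher and lower was 3 and 0 for mature leaves over leaf buds, 6 and 1 for mature leaves over roots, 5 and 1 for mature leaves over stems, 6 and 1 for leaf buds over roots, 6 and 1 for leaf buds over stems, and 1 and 5 for roots over stems. Over all unigenes the corresponding shares were 26.8% and 24.6%, 30.1% and 28%, 27.4% and 23.4%, 32.5% and 27.7%, 18.6% and 17.6%, and 26.3% and 29.1%. Their median log2 fold change was 1.08 for mature leaves over roots, 1.04 for leaf buds over roots and −0.55 for roots over stems, beside 0, 0.05 and 0 for all unigenes tested. By library totals the counts for the first 2 comparisons were 2 and 4, and 4 and 2.

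**Figure D4:**
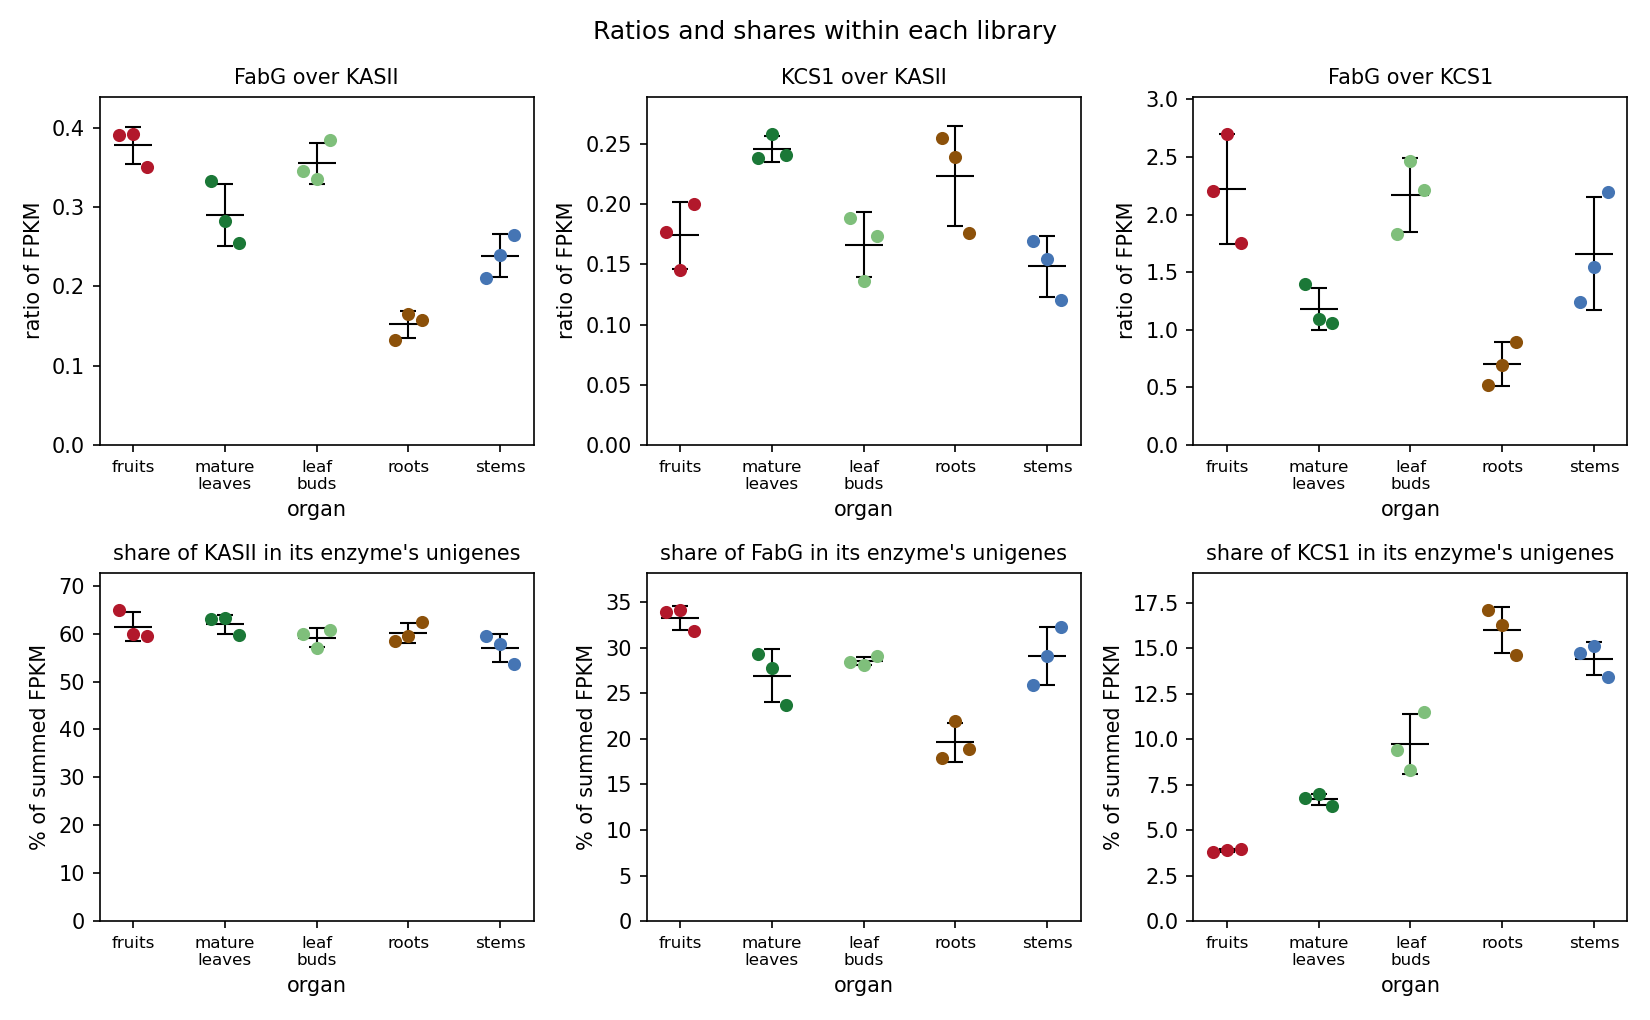
Upper row, FPKM ratios of FabG over KASII, KCS1 over KASII and FabG over KCS1 within each library. Lower row, the share (%) of KASII, FabG and KCS1 in the summed FPKM of the 2, 4 and 6 unigenes named for their enzymes. Points are libraries, black marks the mean and SD of 3. Roots are lowest for FabG over KASII and for the share of FabG. The share of KCS1 is lowest in fruits (3.90%) among these unigenes, all chosen by the study as higher in fruits. With the 3 leaf bud KCS unigenes added, which is not shown, the share was 3.96% in leaf buds and 3.90% in fruits.

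Parts of 2 pathway lists of the study, held here incompletely, gave the wider background of plastid synthesis and of elongation. They hold none of the 3 unigenes. Cluster-12235.47316 is in the first, and Cluster-12235.57397, listed by the study for leaf buds, is in the second. Of 15 tested among 21 fatty acid biosynthesis unigenes, 10 were higher and 1 lower for leaf buds over roots (32.5% and 27.7% of all unigenes), 8 and 2 for mature leaves over roots (30.1% and 28%), and 2 and 5 for roots over stems (26.3% and 29.1%). The medians were 1.03, 0.35 and −0.55 on the log2 scale. In the remaining comparisons 3 were higher and 6 lower for mature leaves over leaf buds (26.8% and 24.6%), 5 each way between mature leaves and stems (27.4% and 23.4%), and 6 higher and none lower in leaf buds than in stems (18.6% and 17.6%). Of 16 tested among 20 elongation unigenes, beside the same shares of all unigenes, 11 were higher and 4 lower for mature leaves over roots, 9 and 3 for leaf buds over roots, and 2 and 7 for roots over stems. For mature leaves over leaf buds 3 were higher and 8 lower, for mature leaves over stems 5 and 6, and for leaf buds over stems 7 and 3. Cluster-12235.57397 was listed as specific to leaf buds on these libraries, so its calls in comparisons with leaf buds are no independent evidence. By library totals the counts for mature leaves over roots were 6 and 4 in both lists, with medians of −0.10 for the biosynthesis and 0.69 for the elongation unigenes.

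The biosynthesis unigenes with the largest differences were scarce ones. Cluster-26398.0 had 123 counts summed over mature leaves and 88 over leaf buds, against none in roots and 1 in stems. Its leaf bud libraries were unlike each other, at 0.05 to 2.39 FPKM. Cluster-28350.0 had 52 counts in mature leaves, 2 in leaf buds and none in roots or stems. In the elongation list they were Cluster-12235.57397 and Cluster-12235.11162, which had 12.91 to 18.93 FPKM in leaf buds and was listed at 0 in the root libraries. Zero counts in an organ allow up to 3.

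In fruits, 9 of the 15 biosynthesis unigenes were higher and 3 lower than in mature leaves (20.4% and 22.2% of all unigenes), 7 and 3 than in leaf buds (24.4% and 23.5%), 9 and 1 than in roots (28.4% and 24.8%), and 8 and 0 than in stems (20.7% and 17.4%). Of the 16 elongation unigenes, beside the same shares, 8 were higher and 2 lower than in mature leaves, 4 and 6 than in leaf buds, 10 and 0 than in roots, and 9 and 1 than in stems. By library totals 3 biosynthesis unigenes were higher and 5 lower in fruits than in leaf buds. All of these are calls by adjusted p. Cluster-12235.47316, among the biosynthesis unigenes, was chosen by the study as higher in fruits of these libraries, so its calls are no independent evidence. The same holds against leaf buds for Cluster-12235.57397, an elongation unigene listed by the study for leaf buds.

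The patterns most like each unigene were found by Pearson correlation of log2 CPM over the 15 libraries, which fall into 5 organs and share the contrast between fruits and the rest. KASII was most like Cluster-12235.50517 (r = 0.982), Cluster-12235.31746 (r = 0.982) and Cluster-12235.57602 (r = 0.981), and 180 unigenes had an r over 0.95 with it. The first 2 were nearly confined to fruits, with at most 0.88 and 0.21 FPKM in any other library, so that their likeness to KASII rests on fruits. Cluster-12235.57602 had levels of the KASII kind, with means of 38.1 FPKM in fruits, 10.8 in mature leaves, 13.4 in leaf buds, 12.9 in roots and 16.9 in stems.

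FabG was most like Cluster-12235.42586 (r = 0.985), Cluster-12235.49013 (r = 0.984) and Cluster-12235.41267 (r = 0.983), and 50 unigenes had an r over 0.95. The first was nearly confined to fruits, with a mean of 604 FPKM there and at most 5.13 FPKM in any other library. Cluster-12235.49013 was close to it in level too, with means of 58.5 FPKM in fruits, 12.6 in mature leaves, 17.7 in leaf buds, 4.37 in roots and 11.7 in stems. KCS1 was most like Cluster-12235.43245 (r = 0.974), Cluster-12235.40797 (r = 0.969) and Cluster-12235.44755 (r = 0.967), with 18 unigenes over 0.95. Of these, Cluster-12235.40797 had a mean of 69.8 FPKM in fruits and at most 0.94 FPKM in any other library. Cluster-12235.43245 had 176 FPKM in fruits, 89.2 in mature leaves, 79.6 in leaf buds, 84.7 in roots and 85.9 in stems, the same small spread outside fruits. Between the 3 unigenes themselves r was 0.917 for KASII and FabG, 0.846 for KASII and KCS1, and 0.739 for FabG and KCS1, and in ranks (Spearman) it was 0.686, 0.307 and 0.325.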

How the data were processed

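The authors removed adapters and low-quality reads from paired-end Illumina HiSeq reads (CASAVA 1.8 in the submitters' processing notes) and assembled all libraries with Trinity. The authors deposited 1 table for each of the 15 libraries, with an estimated count of each unigene, whole or fractional and not normalized. The deposited FPKM values divide by unigene length and by the library's fragments. The aligner, the counter and its handling of fragments that match several unigenes are not given in the sources used here. No genome was used. Names follow the study's supplementary annotation, which differs at FabG from 1 identifier printed in its text. Stem values carry another abbreviation inside the tables and were assigned by the labels.

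Counts were rounded for edgeR 4.0.16 (R 4.3.3), with TMM, filterByExpr (minimum count 10, total 15), 1 quasi-likelihood fit of 5 groups, and Benjamini-Hochberg adjustment over 57488 unigenes. A difference had an adjusted p under 0.05, and a DEG also an absolute log2 fold change over 1. Intervals are at 95%. Ratios and shares of FPKM were tested by exact permutation of 12 libraries. The smallest possible p is 6.49e-05. Replicates mix separate plants, and p-values measure the spread between such mixtures. In simulated data with 200 changed unigenes, 100% of those changed by 2 on the log2 scale and 80% to 92% of those changed by 1 were called in 3 comparisons, over 53954 unigenes tested. The changes were set in roots only and in well-counted unigenes. The simulation lacked the differences in library composition between organs, so these rates may not carry over to the data. The members, lists and tests were chosen with earlier results of these data known. Named unigenes were the 3 members, the unigenes the study named for the same enzymes, the 3 most similar to each member, and the largest DEG of each pathway list per comparison.

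Alternatives were DESeq2's size factors, library totals only, no filter, at least 1 CPM in 3 libraries, a replicate block, each library left out, DESeq2 1.42.0, limma 3.58.1 on log2(FPKM + 1) and log2(FPKM + 0.1), only the 12 libraries other than fruits, CPM in place of FPKM for ratios and shares, and Spearman for likeness. The KCS share with leaf bud unigenes was added after seeing the data. Tables were made with Python 3.11.15, pandas 2.3.3 and matplotlib 3.10.9. The qRT-PCR values were not analysed here.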

Additional observations from a re-analysis of the deposited data

How the results depend on the processing

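The calls for FabG against roots, for KASII in roots over stems and for the ratios FabG over KASII and FabG over KCS1 and the shares of FabG and KCS1 passed under every alternative run for them. Of the alternative values for the 18 tested differences, 349 kept their direction and side of the threshold, 49 lost the call, 10 gained one and 24 changed sign. For KASII in mature leaves over leaf buds they were −0.477 by library totals, −0.459 with limma on log2(FPKM + 1) and −0.47 on log2(FPKM + 0.1), and over roots −0.214, −0.198 and −0.203 in that order. For KCS1 in mature leaves over roots they were −0.0698, −0.0432 and −0.0467, for FabG in mature leaves over stems −0.268, −0.268 and −0.291, and for KCS1 in leaf buds over stems 0.0791, 0.0544 and 0.0609. The last, −0.01 with TMM, was also 0.0192 with at least 1 CPM in 3 libraries and −0.15 to 0.0683 on leaving out each library. KASII in mature leaves over leaf buds, 0.01, was also −0.0215 with DESeq2's size factors, −0.0216 with DESeq2 and −0.01 to 0.0576 on leaving out each library. The joint adjusted p of KCS1 was 0.448 by library totals and 0.573 and 0.568 in the 2 limma fits. Leaving out each library gave 0.000246 to 0.07 for the joint adjusted p of KASII and 0.0109 to 0.0527 for the adjusted permutation p of KCS1 over KASII, and the cause was not tested. By library totals the share of called unigenes that were higher in fruits was 29.7% over leaf buds, 36.4% over roots and 34.8% over stems, against 51.0%, 53.4% and 54.4% with TMM. Counts of unigenes differing stayed within 1.5 times in all 168 alternatives. Of 276 values for fruits, 27 moved by at least the main standard error of the comparison times the square root of 3, all by library totals or with limma. In ranks, the 9 correlations of likeness lay between 0.754 and 0.961.

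Libraries with the same replicate number did not deviate together (30 pairs, correlations −0.129 to 0.0691), so the numbers were not used as pairs. A replicate block ended the calls of KASII for mature leaves over roots (0.224, adjusted p = 0.0551) and leaf buds over roots (0.214, adjusted p = 0.0638) and no other call of the 3 unigenes. The lowest estimated count of FabG was 80.1, in a root library. Its SD of FPKM was 13.6% of the mean in roots and 16.8% in mature leaves (n = 3 each).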
